A study of Mus musculus with 4 samples.

Results

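The giant filament titin and the proteins that sit on or beside it in the sarcomere were examined at the RNA level in mouse cardiac progenitor cells (CPCs) with and without the transcription factor Isl1. Titin is encoded by Ttn, the thin filament protein nebulin by Neb, the myosin-binding proteins by Mybpc1, Mybpc2, Mybpc3 and Mybphl, and the M-band proteins myomesin 1 to 3 by Myom1, Myom2 and Myom3. These 9 genes were taken by symbol from the 20701 symbols of the deposited transcript table. Where a symbol had several transcript entries, the one with the most counts in sum was used.

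Titin runs from the Z-disc, where thin filaments are anchored, through an elastic I-band spring and along the thick filament to the M-band in the middle of the sarcomere. Myosin-binding protein C attaches to the thick filament and to titin, and myomesin crosslinks titin and myosin at the M-band. Nebulin is the long thin filament protein of skeletal muscle, while heart muscle relies mainly on the shorter nebulette (Nebl).

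The study asked which genes depend on Isl1, a LIM-homeodomain factor of second heart field progenitors. E14 Tg(Nkx2-5-EmGFP) embryonic stem cells, which carry a green fluorescent reporter of the cardiac factor gene Nkx2-5, were differentiated into CPCs and sorted for the reporter at day 5. The 4 poly(A) RNA libraries came from control clones (control, 2 libraries) and from clones with both Isl1 copies disrupted by CRISPR/Cas9 (Isl1_KO, 2 libraries). The knockout is given by the sample titles and by the methods of the study, whereas the series' design text mentions a knockdown with short hairpin constructs, and the titles were followed. All 4 carried the reporter, and each group held different clones, so the loss of Isl1 and other differences between these clones cannot be told apart. The p-values measure only the spread of 2 libraries per group, pooled over both groups, and this spread may be partly technical. The test assumes that both groups share a common spread, which the unequal pairs described below did not.

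The libraries held between 8821517 and 13186109 counts over 1 entry per gene. A floor of 3 counts corresponded to between 0.228 and 0.340 counts-per-million (CPM) before scaling, and it covers counting error only because the reads had no molecular identifiers. The counts of the control pair lay close to counting error, with 1.13 as the ratio of chi-square to degrees of freedom over 12699 genes, against 18.7 over 12644 genes for the Isl1_KO pair. Isl1 itself had 35.1 and 35.7 CPM in control and 1.31 and 2.08 CPM in Isl1_KO, so the levels followed the labels. Nkx2-5, the gene behind the sorting reporter, lay at 21.1 and 19.8 CPM in control and at 4.77 and 4.34 CPM in Isl1_KO. The 7 listed cardiomyocyte markers summed to 1246 to 1253 CPM in control and to 65.2 to 116 CPM in Isl1_KO, and all 7 passed the test as lower. In these bulk samples, fewer cells of a type and less RNA per cell cannot be told apart.

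Of the 9 genes, 4 were significantly lower in Isl1_KO: Ttn, Mybpc3, Myom1 and Mybpc1. The criterion was an adjusted p under 0.05 in edgeR's quasi-likelihood test with Benjamini-Hochberg adjustment over all 12715 genes tested, of which 1.94% were called lower and 0.503% higher. Neb was tested and did not pass, and the other 4 genes (Mybphl, Mybpc2, Myom2 and Myom3) were removed by the filter on low counts. Mybpc3 and Mybpc1 passed this filter only through the control libraries, so the count of called genes is a description of the 9. The Isl1_KO levels lay below both control levels for 6 of the 9 genes, namely the 5 tested ones and Mybphl. Of all tested genes, 29.0% showed this pattern. Mybphl was not tested, and it had 2 counts in both control replicate 1 and Isl1_KO replicate 1. Under the study's own criteria in DESeq2 (an absolute log2 fold change over 0.58 and an unadjusted p-value under 0.05), 4 of the 9 were lower, where 4.57% of 16855 genes were. Without either control library, 2 of the 9 were called. The 9 genes together took 517 to 590 CPM of the control libraries and 11.3 to 15.5 CPM of the Isl1_KO libraries.

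**Figure D1:**
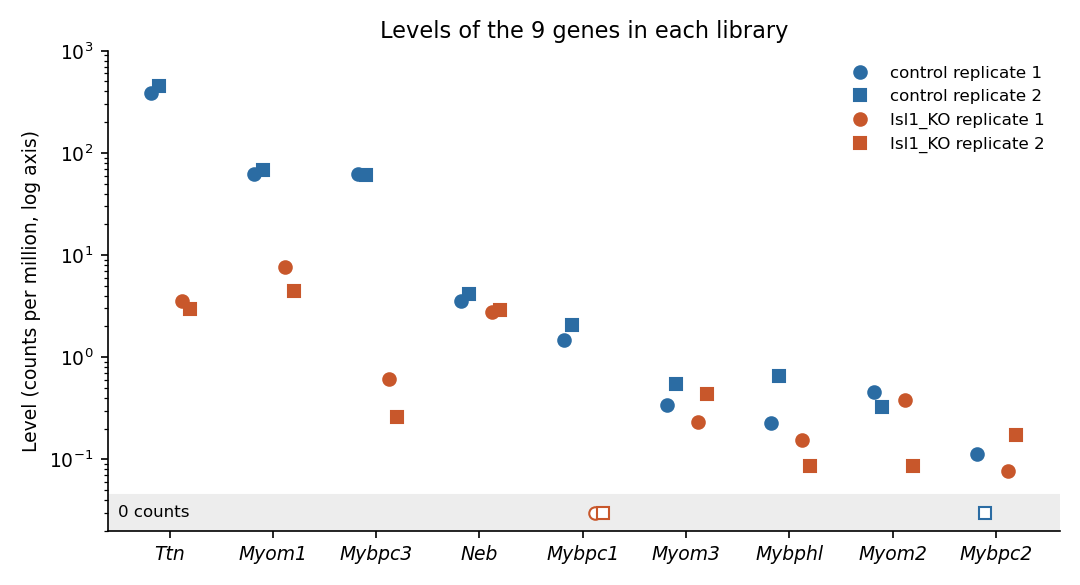
Level of each of the 9 genes in each library, in counts-per-million on a log axis, with control libraries in blue and Isl1_KO libraries in orange and open symbols in the grey band for libraries with 0 counts. Ttn, Myom1 and Mybpc3 stand at 60.2 CPM or more in both control libraries and at 7.69 CPM or less in both Isl1_KO libraries, while Neb lies between 2.77 and 4.16 CPM in all 4.

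The promoters of the 3 most abundant members are shown because these genes fell together. Each window runs from 250 bases before to 50 bases after the start site, was taken from RefSeq on GRCm38.p6 and is printed 5′ to 3′ on the strand of the gene, with capitals marking letters that matched a searched motif. The windows are chr2:76982498-76982797 (minus strand) for Ttn, chr2:91117894-91118193 (plus strand) for Mybpc3 and chr17:71019307-71019606 (plus strand) for Myom1.
Ttn: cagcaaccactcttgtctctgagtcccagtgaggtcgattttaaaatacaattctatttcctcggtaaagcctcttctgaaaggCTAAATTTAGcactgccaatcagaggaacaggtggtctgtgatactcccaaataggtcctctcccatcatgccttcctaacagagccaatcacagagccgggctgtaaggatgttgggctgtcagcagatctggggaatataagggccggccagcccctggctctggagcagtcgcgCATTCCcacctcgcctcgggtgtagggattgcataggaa
Mybpc3: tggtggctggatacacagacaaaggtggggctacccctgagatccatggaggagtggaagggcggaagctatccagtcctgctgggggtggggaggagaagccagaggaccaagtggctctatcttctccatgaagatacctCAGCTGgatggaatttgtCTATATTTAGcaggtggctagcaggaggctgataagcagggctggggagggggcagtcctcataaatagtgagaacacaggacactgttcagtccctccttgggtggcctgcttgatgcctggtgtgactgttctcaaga
Myom1: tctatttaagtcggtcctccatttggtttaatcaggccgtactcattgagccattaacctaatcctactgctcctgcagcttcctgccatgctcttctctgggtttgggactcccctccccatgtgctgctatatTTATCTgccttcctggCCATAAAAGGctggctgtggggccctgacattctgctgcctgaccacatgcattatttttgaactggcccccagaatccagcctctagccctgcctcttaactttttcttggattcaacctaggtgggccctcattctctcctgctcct

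The motifs searched on both strands included CTAATT, and likewise CTAATG, as core letters of the Isl1 motif. The GATA motif was searched as AGATAA, the MCAT element as CATTCC and an E-box as CAGCTG, along with the CArG box bound by SRF and the MEF2 motif. Positions count from the start site and give the first base of the match. The Ttn window held a MEF2 motif at -166 and CATTCC at 11. In the Mybpc3 window a MEF2 motif lay at -90 with CAGCTG at -108, and in the Myom1 window a CArG box lay at -99 with AGATAA on the minus strand at -115. Neither CTAATT nor CTAATG was found in these 3 windows, which says only that these letters are not in these 300 bases.

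Among the 32851 promoter windows of the table, 3.19% held a MEF2 motif, 1.63% a CArG box, 16.3% CAGCTG, 14.7% CATTCC, 11.2% AGATAA, 8.21% CTAATT and 7.36% CTAATG. The MEF2 motif, the CArG box and CAGCTG match on both strands at once, so each such match is given once. Windows were present for 7 of the 9 members. Of the low members, Mybphl had CTAATG at -171 and AGATAA at -141, Myom3 a MEF2 motif at -35, Mybpc2 CATTCC on the minus strand at -62 and Mybpc1 CAGCTG at -87. A MEF2 motif was thus present both in genes that fell and in Myom3, which was close to the floor in every library. A match is a description of the letters and shows no binding.

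Ttn lies at chr2:76542037-76820604 on the minus strand (NCBIM37, the assembly of mm9) and was represented by entry NM_011652 of 101359 bases. Its counts were 3404 and 4153 for control but 46 and 34 for Isl1_KO, or 386 and 454 CPM against 3.54 and 2.95 CPM. Both control libraries were high and both Isl1_KO libraries low, with no overlap, and every Isl1_KO count was above the floor of 3. On average, control stood at 420 ± 48.1 CPM (SD, n = 2) and Isl1_KO at 3.24 ± 0.414 CPM (SD, n = 2). In edgeR's test the log2 fold change was -7.01 with an SE of 0.150 and an adjusted p of 1.1e-04, or 129-fold lower on the fitted scale. An antisense transcript, Gm13938, overlaps a Ttn exon, and as the authors counted both strands together its reads cannot be told apart from those of Ttn there.

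The spread of Ttn within control was wide for so abundant a gene. Its level in control replicate 2 was 1.18 times that in control replicate 1, a log2 ratio of 0.23. Of 2314 genes with at least 1000 counts in both control libraries, only Zdbf2 and Ubn2 differed more, and the 5th and 95th percentiles of this ratio were -0.087 and 0.086. The 5 most different genes, Ttn among them, were all higher in control replicate 2 and all had entries longer than 12 kb. Across genes with at least 50 counts in both control libraries (the 9 members left out), the median log2 ratio rose with transcript length, from -0.02 for 2533 genes under 2 kb to 0.06 for 233 genes over 10 kb. Such ratios were 0.13 for Myom1, 0.24 for Neb and -0.05 for Mybpc3. The part of transcript length in the difference between the control libraries was not tested further.

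**Figure D2:**
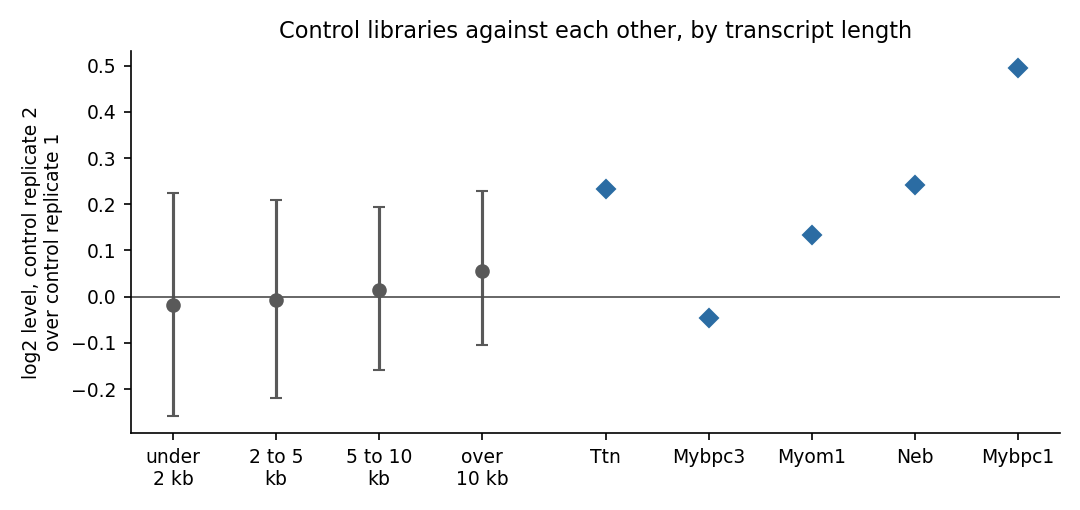
Log2 ratio of the level in control replicate 2 to that in control replicate 1, as the median (circle) and the range from the 5th to the 95th percentile (bar) of genes binned by transcript length, and as single values (diamonds) for the tested members. The medians rise from -0.02 to 0.06 with length, and Ttn, at 0.23, lies just above the range of genes over 10 kb.

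The same length bins showed a small trend between the groups in the opposite sense. The median log2 fold change, Isl1_KO over control, was 0.07 under 2 kb and -0.11 over 10 kb. With an offset for transcript length added to the fit, an alternative chosen after seeing the data, the log2 fold change of Ttn was -6.81. The part of transcript length in the difference between the groups was not tested further.

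The deposited table held a longer and a shorter Ttn entry, NM_011652 of 101359 bases and NM_028004 of 81737 bases. As background, the long titins of skeletal muscle and the short titin of the adult heart differ in how many I-band spring exons are kept, and the short cardiac form carries its own N2B exon. The GENCODE models nearest in length, Ttn-204 with 313 exons and Ttn-203 with 192 exons, differed in 122 exons found only in the long model and in 1 exon found only in the short one. The 122 exons lie within chr2:76659173-76803971 and sum to 22389 bases, and the single exon at chr2:76745365-76748010 is 2646 bases long. The exons shared by both models are most of the transcript, and a read in them is counted for both entries.

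The longer entry gained few counts from its extra length. Its surplus over the shorter one was 34 and 31 counts for control, but 2 and 0 for Isl1_KO. At the density of the shorter entry, which was 41.2 and 50.4 counts per kb in control, the 19622 extra bases would have held 809 and 990 counts. The observed difference was 1.73 and 1.58 counts per kb. It is a net value, since reads in the exon found only in the short form are subtracted from those in the exons found only in the long form. The extra exons lie 68.5 to 99.8 kb from the 3′ end of the long model, and the part of coverage along the transcript in this difference was not tested.

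Both Ttn entries were called lower. In a fit over all 21072 transcript entries that passed the filter, the log2 fold change was -7.00 (SE 0.149) for the longer and -7.02 (SE 0.146) for the shorter entry, each with an edgeR adjusted p of 0.00017. Since they share reads, these are not independent results. With 2 and 0 counts between the entries in Isl1_KO, a shift from one form to the other was not detectable at this depth.

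**Figure D3:**
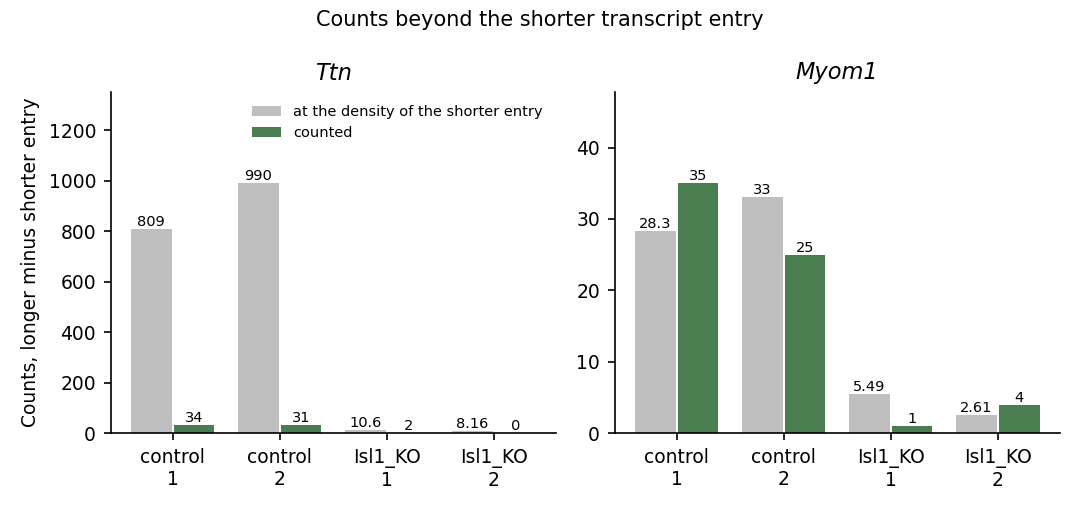
Counts of the longer minus the shorter transcript entry of Ttn and of Myom1 in each library (green bars), beside the count that the extra length would hold at the density of the shorter entry (grey bars), on linear axes that start at 0. For Ttn the control libraries hold 34 and 31 counts where equal density gives 809 and 990, while for Myom1 they hold 35 and 25 where equal density gives 28.3 and 33.0.

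Of the myosin-binding proteins, only the cardiac one was abundant. Mybpc3, at chr2:90958301-90976673 on the plus strand with an entry of 4116 bases, encodes cardiac myosin-binding protein C. Control held 547 and 550 counts of it and Isl1_KO 8 and 3, or 62.1 and 60.2 CPM against 0.615 and 0.260 CPM. The control libraries were nearly equal, and the Isl1_KO libraries were both far below them, the second at the floor. Control averaged 61.1 ± 1.35 CPM (SD, n = 2) and Isl1_KO 0.438 ± 0.251 CPM (SD, n = 2). The fitted log2 fold change was -7.06 with an SE of 0.237, at an edgeR adjusted p of 0.000776, and the gene passed the filter on low counts only through the control libraries. Against the control mean, the Isl1_KO libraries stood at -6.64 and -7.88 on the log2 scale. Without Isl1_KO replicate 1 the fitted log2 fold change was -7.81, still past the threshold.

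Mybpc1, at chr10:87981024-88067897 on the minus strand, encodes the slow skeletal form. Control held 13 and 19 counts of it, and both Isl1_KO libraries 0. Its control level of 1.78 ± 0.427 CPM (SD, n = 2) was low, and against the floor of 3 counts per library in Isl1_KO (0.245 CPM on average) Mybpc1 was at least 7.24-fold lower. The edgeR adjusted p was 0.0475, just under the threshold. It passed the filter on low counts only through the control libraries. The call was lost when all transcript entries were fitted as separate features (edgeR adjusted p 0.0530), without control replicate 1 (0.419) and without control replicate 2 (0.494). With a minimum of 10 counts in each library it was not tested, and over the other 11 alternatives its adjusted p ran from 4.8e-08 to 0.494. Entries NM_001252372 and NM_175418 held the same summed count.

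The remaining myosin-binding genes were close to the floor. Mybphl (chr3:108167829-108182974, plus strand), which encodes a myosin-binding protein H-like protein of the atria, was counted 2 and 6 times in control but 2 and 1 times in Isl1_KO. Mybpc2 (chr7:51757088-51780039, minus strand), the fast skeletal form, was counted 1 and 0 times in control but 1 and 2 times in Isl1_KO. Differences in these genes were not detectable at this depth. A non-coding transcript, Gm12522, overlaps a Mybphl exon on the opposite strand. Without the filter on low counts, the edgeR adjusted p was 0.402 for Mybphl and 0.769 for Mybpc2.

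Among the M-band genes, Myom1 alone was well above the floor. Myom1, at chr17:71368861-71476196 on the plus strand, encodes myomesin 1. Control held 545 and 620 counts of it and Isl1_KO 100 and 51, or 61.9 and 67.8 CPM against 7.69 and 4.42 CPM. Both Isl1_KO libraries were below both control libraries, and unlike for Mybpc3 both stayed well above the floor. Control averaged 64.9 ± 4.22 CPM (SD, n = 2) and Isl1_KO 6.06 ± 2.31 CPM (SD, n = 2). The level was 10.6-fold lower on the fitted scale, with a log2 value of -3.41, an SE of 0.245 and an edgeR adjusted p of 0.00714. Without control replicate 1 or control replicate 2 this call was lost (edgeR adjusted p 0.0969 and 0.0878), while the fold change stayed at -3.48 and -3.34. Over all alternatives its adjusted p ran from 6.0e-159 to 0.0969.

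Myom1 also had a longer and a shorter entry, NM_010867 of 5573 bases and NM_001083934 of 5280 bases. The GENCODE models Myom1-202 and Myom1-201 differ, apart from their ends, by 1 internal exon of 294 bases at chr17:71431543-71431836 (NCBIM37, plus strand). As background, the alternative exon of this gene gives EH-myomesin, the form of the embryonic heart. The exon is shown because it sets these models apart, in lower case with the flanking splice site bases of the introns in capitals.
Myom1 exon: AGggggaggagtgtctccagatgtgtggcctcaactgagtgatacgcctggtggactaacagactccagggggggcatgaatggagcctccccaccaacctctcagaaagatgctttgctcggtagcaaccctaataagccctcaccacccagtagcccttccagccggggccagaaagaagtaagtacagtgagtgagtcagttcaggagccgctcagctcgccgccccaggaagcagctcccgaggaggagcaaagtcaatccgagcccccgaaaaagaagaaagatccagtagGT

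The longer Myom1 entry held 35 and 25 counts more than the shorter one in control, where equal density over its 293 extra bases would give 28.3 and 33.0. The extra bases were thus counted at about the density of the rest of the transcript in control, in contrast to the extra length of Ttn. In Isl1_KO the difference was 1 and 4 counts, where equal density would give 5.49 and 2.61. These counts are too few to tell whether the use of the extra bases differed between the groups. As whole entries, both fell, with log2 fold changes of -3.40 (SE 0.245, edgeR adjusted p 0.00676) and -3.37 (SE 0.272, edgeR adjusted p 0.00934).

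The other myomesins were close to the floor in all libraries. Myom2 (chr8:15057653-15133541, plus strand), the M-protein of fast and adult cardiac muscle, was counted 4 and 3 times in control but 5 and 1 times in Isl1_KO. Myom3 (chr4:135315630-135371479, plus strand) had 3 and 5 counts in both groups. The groups overlapped for both genes, and without the filter on low counts the edgeR adjusted p was 0.735 for Myom2 and 0.796 for Myom3.

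Neb (chr2:51992167-52194318, minus strand) was counted 31 and 38 times in control but 36 and 33 times in Isl1_KO, or 3.52 and 4.16 CPM against 2.77 and 2.86 CPM. The Isl1_KO levels were slightly below the control levels without overlap. At -0.45 (SE 0.239), its log2 fold change had an edgeR adjusted p of 0.324, and the threshold was not passed under any of 12 alternatives, in which the value ran from -0.56 to -0.28. The skeletal muscle markers Myod1 and Myf5 had 0 counts in every library, and the 9 listed skeletal muscle markers in the table summed to 38.4 to 40.6 CPM in control and 44.7 to 48.4 CPM in Isl1_KO, most of it Tnnt3 at 33.9 to 46.0 CPM.

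Per transcript length, the order of the 9 genes differed from that of the CPM values, since Ttn is so long. In the deposited RPKM (counts scaled by library size and transcript length), Mybpc3 was the highest in control with 8.37 ± 0.184, followed by Myom1 with 6.56 ± 0.424 and Ttn with 2.34 ± 0.269 RPKM (SD, n = 2 each). These levels did not overlap between genes. Mybpc1 followed with 0.255 ± 0.0636, Mybphl with 0.195 ± 0.134 and Neb with 0.095 ± 0.0071 RPKM, and Mybphl did not differ from either neighbour beyond its spread. Myom2 and Myom3 both had a mean of 0.045 RPKM and Mybpc2 one of 0.01 RPKM. In Isl1_KO, Myom1 was the highest of the 9 with 0.62 ± 0.226 RPKM, while Ttn was at 0.02 RPKM in both libraries and Mybpc3 at 0.06 ± 0.0283 RPKM.

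The neighbours of titin in the sarcomere were taken from a list of 43 partner genes. Of these, 37 passed the filter on low counts, 18 were called lower in Isl1_KO and none higher in edgeR's test, against the 1.94% and 0.503% of all tested genes. The other 19 tested genes did not pass, and those named below as such were picked after their values were seen. The median log2 fold change of the 37 was -1.25, beside -0.0027 over all tested genes. Of the called genes named below, Myl2, Mylk3, Csrp3, Xirp1 and Smyd1 passed the filter only through the control libraries. In Isl1_KO, Mylk3 had 12 and 10 counts and Smyd1 24 and 9. Without control replicate 1 the count of partner genes called was 3 and without control replicate 2 it was 7, while without either Isl1_KO library it was 31.

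Of the thick filament genes, which encode the myosin motor, its light chains and their kinase, 7 of 8 were called lower. Myh6, the alpha myosin heavy chain, had 250 and 255 CPM in control and 2.31 and 1.82 CPM in Isl1_KO, a log2 fold change of -6.92 (SE 0.113). Log2 fold changes of the others were -5.76 for the beta myosin heavy chain Myh7, -5.67 for the atrial Myl7, -4.24 for Myl4, -3.57 for Myl3 and -3.20 for the cardiac light chain kinase Mylk3. The log2 fold change of Ttn and Mybpc3 was close to that of Myh6 and more negative than those of Myh7 and Myl7, although no difference between genes was tested. The ventricular light chain gene Myl2 was counted 39 and 43 times in control but 1 and 0 times in Isl1_KO. Myh6 and Myh7 are near-identical neighbours, so reads may have been divided wrongly between them. Myh7b did not pass (log2 fold change -0.84).

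Of the 5 listed thin filament genes, 4 were tested and 3 were called lower. Nebl, the nebulette gene, had 20.7 and 21.5 CPM in control and 1.31 and 1.56 CPM in Isl1_KO, a log2 difference of -3.87 (SE 0.187, edgeR adjusted p 0.00277). The groups were far apart, whereas the long homologue Neb differed by -0.45 and did not pass. The difference between these genes was not tested. Cardiac actin, Actc1, was at -2.85 and the capping protein gene Tmod1 at -1.11. Skeletal actin, Acta1, did not pass, with a value of -0.29.

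Of the 8 genes listed for the Z-disc end of titin, 5 were tested and 4 were called lower. Xirp1, encoding an actin-binding repeat protein, was counted 160 and 182 times in control but 1 and 0 times in Isl1_KO. Csrp3, the muscle LIM protein gene, was counted 42 and 40 times in control but 2 and 1 times in Isl1_KO. The log2 fold change was -3.99 for the PDZ-LIM protein gene Ldb3 and -2.74 for the alpha-actinin 2 gene Actn2.

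Of the 8 tested genes of the obscurin family and the M-band end of titin, 1 was called lower. The other 7 did not pass, and the median log2 fold change of the 8 was -0.17. Values of these 7 differed widely, from -3.37 for Trim55 to 0.46 for Trim54. Trim55, a ubiquitin ligase that binds titin, had 19.0 and 20.9 CPM in control and 3.46 and 0.260 CPM in Isl1_KO. It did not pass (log2 fold change -3.37, edgeR adjusted p 0.0835).

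None of the 5 tested genes of the 7 listed for the I-band spring of titin was called, and their median log2 fold change was -0.21. Ankrd1, a stress-responsive ankyrin repeat gene, ran from 16.0 to 51.6 CPM with the control libraries between the Isl1_KO libraries. Fhl1, a LIM protein gene, had 216 and 213 CPM in control and 175 and 136 CPM in Isl1_KO, without overlap. It did not pass (log2 fold change -0.46, edgeR adjusted p 0.129). The log2 fold changes of the 5 ran from -1.01 for Cryab to 0.0032 for Fhl2.

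Of the chaperone genes, Smyd1, a methyltransferase needed for myosin folding, had 82.9 and 86.0 CPM in control and 1.84 and 0.781 CPM in Isl1_KO, a log2 fold change of -5.97 (SE 0.268). Unc45b, the myosin chaperone, was at -2.39 and did not pass (edgeR adjusted p 0.0705).

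Of the 4 splicing regulators of titin, 2 were called lower. Rbm24, a muscle splicing regulator, had 82.4 and 79.0 CPM in control and 12.4 and 11.5 CPM in Isl1_KO, a log2 difference of -2.75 (SE 0.0995, edgeR adjusted p 0.00103). Rbm20, the factor that removes I-band exons from titin RNA in the heart, had 43.5 and 46.5 CPM in control and 24.3 and 26.5 CPM in Isl1_KO, a log2 difference of -0.83 (SE 0.105, edgeR adjusted p 0.0329). Both regulators were lower in both Isl1_KO libraries and still well above the floor. Mbnl1 and Ptbp1 did not pass.

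**Figure D4:**
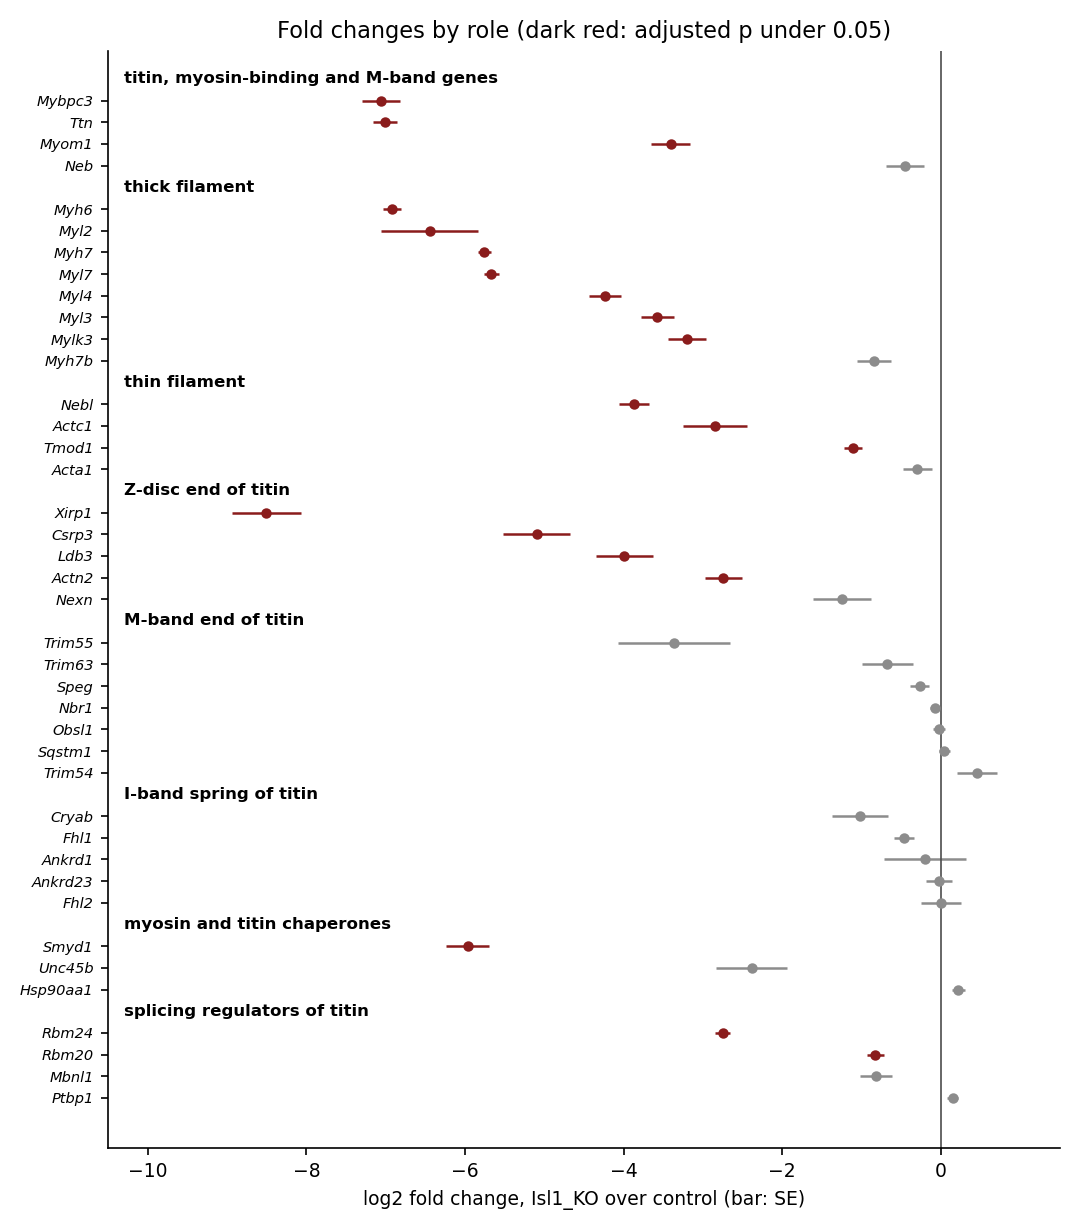
Log2 fold change (Isl1_KO over control, bar: SE) of the tested members and reported partner genes, grouped by role, with genes past an edgeR adjusted p of 0.05 in dark red and the others in grey. Mybpc1 is not drawn because it had 0 counts in both Isl1_KO libraries, the fitted values of Myl2, Csrp3 and Xirp1 rest on 1 to 3 Isl1_KO counts, and the called thick filament genes lie between -6.92 and -3.20 while the genes of the I-band spring lie between -1.01 and 0.0032 with none called.

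The 5 genes whose pattern over the 4 libraries was nearest to that of Ttn were found by the Euclidean distance between centred log2 CPM profiles, with the 9 members left out. They were Myh6 (distance 0.182), Uty (0.231), Sphkap (0.447), Xirp1 (0.505) and Ddx3y (0.847). With 4 libraries in 2 groups, such a likeness mainly reflects a like difference between the groups on this scale. The fitted log2 fold changes of Uty (-9.89), Xirp1 (-8.50) and Ddx3y (-8.26) were more negative than that of Ttn (-7.01). Uty had 0 CPM in both Isl1_KO libraries, Xirp1 in replicate 2 and Ddx3y in replicate 1. Their distances thus depend on the small count added before taking logs. Of the 5, all but Myh6 passed the filter on low counts only through the control libraries. Uty and Ddx3y are Y-linked, with 10.9 to 17.1 CPM in the control libraries and 0 to 0.0868 CPM in the Isl1_KO libraries. A difference between the clones on the Y chromosome thus ran alongside the difference in Isl1, and its part in the levels of the 9 genes was not tested.

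Markers of other cell types were measured in the same libraries. The 6 fibroblast markers, which include genes of feeder cells, summed to 2103 to 2149 CPM in control and 497 to 1359 CPM in Isl1_KO, and the 4 smooth muscle markers to 2435 to 2438 CPM and 679 to 2082 CPM, with none called in either list. Sums for 5 endothelial markers were 364 to 366 CPM in control and 326 to 367 CPM in Isl1_KO, with 0 called. Kdr made up most of these sums, at 217 and 214 CPM in control and 186 and 278 CPM in Isl1_KO. Tek had 56.2 and 57.9 CPM in control and 33.9 and 16.1 CPM in Isl1_KO. Cdh5 and Emcn were also lower in both Isl1_KO libraries, while Pecam1 was higher. The 5 blood markers summed to 473 to 482 CPM in control and 191 to 336 CPM in Isl1_KO, with 1 called. The called blood marker, Runx1, was higher in Isl1_KO (log2 fold change 0.57, edgeR adjusted p 0.0335), and the lower sum came from the embryonic globin genes Hbb-bh1 and Hba-x. The 5 pluripotency markers summed to 30.1 to 30.6 CPM and 24.7 to 48.2 CPM, with none called. The part of these cells in the levels of the 9 genes was not tested.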

How the data were processed

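Poly(A) RNA of 4 libraries was sequenced, and the titles gave each library its group and replicate number. Per the study's methods, the authors aligned reads with STAR to mm9 (introns of 20 to 500000 bases) and used HOMER to count reads in the exons of RefSeq transcripts, strands combined. The deposited counts are raw whole reads per transcript entry (31507 entries), and the authors computed the deposited RPKM in edgeR. The authors' deposited comparison from DESeq2 (a mean signal, log2 fold changes with standard errors, a test score and p-values) was not used. Tool versions of the authors are not given in the sources used here. The number of per-sample columns that could not be matched to a sample was 0.

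Genes were tested by the quasi-likelihood F test in edgeR 4.0.16 and R 4.3.3 (TMM factors, filterByExpr, two-sided, no covariate) with Benjamini-Hochberg adjustment over all tested genes and a threshold of 0.05. The test was tried on simulated counts in which both groups had the same spread. It was not tried on groups of unequal spread, as these libraries have. CPM values use effective library sizes. For 1 gene and groups of 2, the smallest two-sided p of an exact permutation test is 0.333. Alternatives were DESeq2 1.42.0, its size factors in edgeR, other filters on low counts (none, or at least 10 counts in every library), all transcript entries, a replicate block, a length offset added after seeing the data, and leaving out each library. Named were the 9 genes, Isl1, the partner genes past the threshold and the 5 genes nearest to Ttn by rule. Other partner genes, Nkx2-5, Runx1, Hbb-bh1, Hba-x, Kdr, Tek, Cdh5, Emcn, Pecam1, Tnnt3, Myod1, Myf5, Zdbf2 and Ubn2 were named after their values were seen. Of the genes that the rule names, 1 is not reported here. The members and lists were chosen with earlier results of these data known. Gene positions are from GENCODE vM1 on NCBIM37, and promoter windows from RefSeq on GRCm38.p6. Tables and plots were made with Python 3.11.15, pandas 2.3.3, numpy 2.4.6 and matplotlib 3.10.9.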

Additional observations from a re-analysis of the deposited data

How the results depend on the processing

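Ttn passed the threshold in all 12 alternatives (log2 fold change -7.15 to -6.81) and Mybpc3 in the 11 in which it was tested (-7.81 to -6.61). Of the 9 genes, 4 were called in the main test, 3 with all transcript entries and 2 with a minimum of 10 counts in each library, since Mybpc3 and Mybpc1 were then not tested. Over all genes, 311 were called in edgeR, 604 in DESeq2, 993 with the study's criteria in DESeq2 and 492 without a filter on low counts. Leaving out 1 library gave 8 to 6337 called genes, 2 to 4 of the 9 genes and 3 to 31 partner genes. The counts were 8 without control replicate 1, 17 without control replicate 2, 6337 without Isl1_KO replicate 1 and 4199 without Isl1_KO replicate 2. By construction, a group of 1 library is then assumed to vary like the other group, and the control pair varied far less than the Isl1_KO pair. Without either control library Myom1, Mybpc1 and Isl1 (edgeR adjusted p 0.0599 and 0.0506, range over its alternatives 1.6e-106 to 0.0599) were no longer called. The replicate numbers were not taken as pairs. The correlation of deviations of same-numbered libraries was 0.017 over 10576 genes, which are not independent replicates. Since the control pair lay close to counting error, this value cannot show whether the libraries were handled in pairs. With a replicate block, 454 genes, 4 of the 9 and 21 partner genes were called, and the log2 fold change of the shorter Ttn entry was -7.01. The order of the 9 genes per length was the same for all 9 with the longest entries. Depth limited Mybphl, Mybpc2, Myom2 and Myom3, and the use of alternative exons in Isl1_KO.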
